A study of Mus musculus with 2 samples.

Results

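Leukocytes are known by the receptors, antigens and cytokines they carry, and the genes of these molecules are described here in the lateral wall of the newborn mouse cochlea. The rule for the set uses gene symbols and no measured value, but it was chosen with earlier results of these data known. It takes in CD antigens, chemokines, interleukins, colony-stimulating factors and their receptors, complement C1q, Fc receptors and Toll-like receptors. C-type lectins, MHC molecules, calprotectin, lysozyme, Ly antigens and a few named leukocyte proteins are also in it. Cd44, Cd63, Clec3a and Clec3b are left out. The set holds 95 of the 4197 genes in the deposited table. By textbook knowledge 43 of them are restricted to leukocytes and 52 are also used by other cells. This division was also made with earlier results of these data known. Among the 52 is the adaptor Cd2ap, which is no antigen in spite of its symbol.

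Lateral walls were taken at postnatal day 0, their cells freed with trypsin, and GFP positive and GFP negative cells sorted apart for RNA sequencing. All mice carried the wnt1CRE driver, which marks the descendants of cells that once expressed Wnt1, chiefly the neural crest. Pigmented intermediate cells of the stria vascularis and glia come from this lineage, and leukocytes come from blood-forming tissue. The GFP positive sample has the genotype wnt1CRE::Ai3 and the GFP negative sample wnt1CRE::Ai4 in the labels, while the protocol names an EYFP reporter for both, and none of these says how many animals were pooled. The table gives each gene a normalised read count, which is its reads divided by a size factor, for 1 GFP negative library, and an average over GFP positive cells. The average resolved into 2 unnamed libraries, called A and B below, and whether the labelled GFP positive sample is among them is not stated: its title carries 68K, and the column of the average carries 180K, as does the title of the GFP negative sample. Reads on the listed genes numbered 12114107 for GFP negative, 17120511 for A and 16584559 for B. With 1 labelled sample per fraction there is no test over samples. Brackets hold 95% Clopper-Pearson (exact binomial) intervals on recovered reads, which cover counting error only, and log2 ratios set the GFP positive mean over the GFP negative value on the log2(value + 1) scale. Only genes past the authors' limits have a row: in the authors' deposited table no adjusted p exceeds 0.00986 and every gene differs at least 2-fold. A gene without a row has no value here and is not shown to be equal.

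The sorted fractions matched their labels at the listed markers. All 6 pigment cell genes and all 5 glial genes of the marker lists were higher in GFP positive cells, with median log2 ratios of 9.86 and 6.82, and all 6 fibrocyte and mesenchyme genes were lower, at 4.43% to 26.7% of their GFP negative value.

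Leukocyte genes work in sets. Macrophages, which live in the stria along its vessels, depend on the receptor Csf1r and its ligands Csf1 and Il34, and they make C1q, the first component of the classical complement pathway. MHC class I molecules sit with B2m on nearly all nucleated cells, whereas class II molecules, their invariant chain Cd74 and the peptide loader H2-DM mark antigen-presenting cells. Many other CD antigens, Toll-like receptors and interleukin receptors are found on cells outside the blood.

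Most of these genes were lower in GFP positive cells. Of the 95, 74 were listed as lower, against 56.4% of all listed genes, and 21 as higher, against 43.6%. Past a 4-fold line, for which the larger value had to reach 5, 62 were lower, against 36.9% of all listed genes, and 15 were higher, against 18.1%. Their median log2 ratio was -2.44, and that of all listed genes was -1.34. After centring on the latter value 14 were 4-fold or more lower, against 10.8% of all listed genes, and 21 were higher, against 43.6%, which is every gene listed as higher. On the recovered reads DESeq2 called 70 of the 95 lower at an adjusted p of 0.05, against 54.6% of all listed genes, and 21 higher, against 43.6%, but the authors had already selected every listed gene on these libraries, so the calls add no support, and they compare libraries and not conditions. In a bulk sample fewer cells of a type and less RNA per cell cannot be told apart.

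The genes restricted to leukocytes were mostly lower, and those of wider use were lower at a share near that of all listed genes. Of the 43 restricted genes 41 were lower, or 95.3%, and 37 were 4-fold or more lower, or 86.0%. The higher ones were Cxcr3 and Il3ra. Of the 52 others 33 were lower, or 63.5%, near the 56.4% of all listed genes, and 19 were higher. Past the 4-fold line 25 of the 52 were lower, or 48.1%, and 13 were higher, or 25%. Of all listed genes 36.9% were 4-fold or more lower and 18.1% were 4-fold or more higher. The difference between these groups of genes, which were drawn with earlier results known, was not tested. The median log2 ratio was -2.65 for the restricted genes, -1.92 for the others and -1.34 for all listed genes. All 43 restricted genes had a summed normalised read count of 17081 in GFP negative cells, 4555 in A and 4605 in B. The 41 that were lower, a group picked by its direction, summed to 16838, 2923 and 2919.

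**Figure D1:**
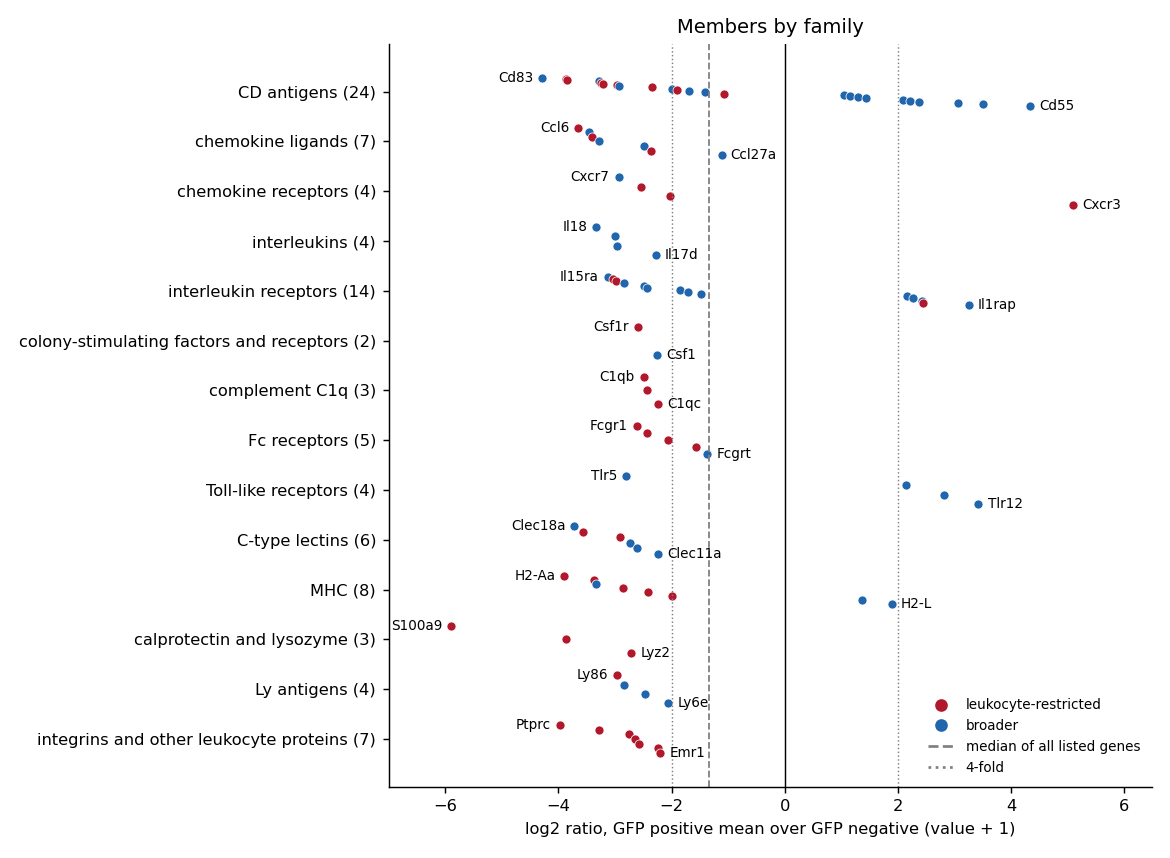
Log2 ratio of GFP positive over GFP negative cells for each of the 95 genes, on the log2(value + 1) scale, with one row per family and the number of genes in brackets. Red points are genes restricted to leukocytes, blue points are genes of wider use, the dashed line is the median of all listed genes (-1.34) and the dotted lines mark 4-fold. The lowest and highest gene of each family are named, and red points lie on the left except for Cxcr3 and Il3ra.

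Macrophage genes were lower in GFP positive cells, from 2.98-fold for Fcer1g to 16.5-fold for Ptprc. All 17 listed genes of a list of 20 macrophage markers were lower, against 56.4% of all listed genes. Of these 15 were 4-fold or more lower, or 88.2%, against 36.9% of all listed genes. Of the 17, 16 stood between 15% and 35% of their GFP negative value, and Ptprc stood at 6.05%. The list median was 18.3%, and the summed level was 12499 in GFP negative cells, 2339.8 in A and 2352 in B. Cd14, Cd163 and Mrc1 had no row. None of the 17 was at 0 in either GFP positive library.

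Csf1r, the receptor macrophages need to survive, had a normalised read count of 2105 in GFP negative cells, 351 in A and 342 in B, which is 6.08-fold (5.58 to 6.63) lower. Libraries A and B lay close together and far below the GFP negative library. Part of its exons overlaps Hmgxb3 on the other strand of the GRCm38 annotation, so its count may hold reads of that gene unless strand was used. Cx3cr1, the fractalkine receptor of resident macrophages and microglia, stood at 1358 against 235 and 233, which is 5.81-fold (5.23 to 6.46) lower. The chains of C1q had ratios with overlapping intervals: C1qa stood at 998 against 179 and 191, C1qb at 936 against 177 and 155, and C1qc at 1021 against 194 and 239. They kept 18.5%, 17.8% and 21.2% of the GFP negative value, and A and B lay far below the GFP negative library for each chain.

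Proteins of the macrophage membrane, lysosome and cytosol showed the same range. Lyz2, the lysozyme of myeloid cells, stood at 1131 against 183 and 159, and Laptm5, a lysosomal membrane protein of blood cells, at 1136 against 177 and 202. These are differences of 6.598-fold (5.85 to 7.46) and 6.001-fold (5.34 to 6.75). Emr1, the F4/80 antigen (Adgre1 in the reference), was 4.62-fold (3.96 to 5.41) lower and Aif1, the actin-bundling protein Iba1, was 4.81-fold (3.903 to 5.95) lower. Cd68, a lysosomal glycoprotein, lay nearer to the GFP negative library, with 736 against 187 and 206, or 3.75-fold (3.31 to 4.24) lower.

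Fc receptors bind the constant part of antibodies and signal in phagocytes through the adaptor Fcer1g. Another adaptor, Tyrobp, which is no Fc receptor, was grouped with this family here. All 5 genes of the family were lower, 3 of them 4-fold or more, against 56.4% and 36.9% of all listed genes. Fcgr1, the high-affinity IgG receptor, stood at 179 against 32.6 and 24.2, Fcgr3 at 295 against 80.04 and 60.5, and Tyrobp at 489.7 against 84.7 and 94.8. Fcer1g had the smallest difference among the macrophage markers, with 526 against 175 and 179, which is 2.98-fold (2.596 to 3.42) lower. Fcgrt is the neonatal Fc receptor, which carries IgG through many kinds of cell and is no leukocyte marker. It had the highest level of the family, 5467 against 2054 and 2173, and was 2.59-fold (2.48 to 2.69) lower.

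Ptprc and Itgb2, found on nearly all leukocytes, had lower ratios than most macrophage genes. Ptprc, the common leukocyte antigen CD45, stood at 281 in GFP negative cells against 15.8 in A and 18.2 in B, which is 16.5-fold (11.6 to 24.2) lower and the lowest ratio of the macrophage list. The integrin chain Itgb2, the shared partner of the leukocyte integrins, was 10.4-fold (7.001 to 15.8) lower, with 156 against 14.9 and 15.1. Its partners Itgal and Itgam were 6.82-fold (5.52 to 8.48) and 6.42-fold (5.02 to 8.27) lower. The interval of Ptprc does not overlap those of Csf1r, Cx3cr1, C1qa, Laptm5 or Lyz2, whereas the interval of Itgb2 overlaps that of Lyz2. Exons of Itgam overlap a predicted gene on the same strand, Gm49368.

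Genes of granulocytes stood at lower percents of their GFP negative value than most macrophage genes. All 7 listed genes of 16 neutrophil markers were 4-fold or more lower, against 36.9% of all listed genes. They stood at 0.969% to 7.61% of the GFP negative value, the lowest being Stfa2l1 on 46 GFP negative reads, 1 in A and 0 in B. Of the 17 macrophage genes, Ptprc lay within that range, at 6.05%, and the other 16 lay above it. S100a8 and S100a9 form calprotectin, an abundant cytosolic protein of neutrophils. S100a9 had 277 reads in the GFP negative library against 4 in each of libraries A and B, the lowest ratio of the 95 genes, 74.6-fold (37.3 to 174) lower. S100a8 had 142 reads against 8 and 11, or 15.99-fold (9.87 to 27.3) lower. The intervals of this pair, which is thought to act as a complex, do not overlap. Outside the set, Ngp, a granule protein, stood at 86.7 against 1.86 and 3.03, and the granule proteins Ltf and Camp were 13.1-fold (7.27 to 25.7) and 14.6-fold (5.65 to 47.8) lower. Ltf had 82 reads in the GFP negative library against 1 in A and 12 in B, and Camp had 33 against 4 and 1. Ly6g, Elane, Mpo, Cxcr2 and Csf3r had no row.

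Lymphoid genes were few. Of 13 lymphoid markers 4 were listed, all lower, against 56.4% of all listed genes. They stood at 1.94% to 16.3% of the GFP negative value. Cd79b, a signalling chain of the B cell receptor, had 30 reads in GFP negative cells, 1 in A and 4 in B, or 12.6-fold (4.85 to 41.6) lower. Among other antigens of lymphocytes, Cd2 was 8.33-fold (5.32 to 13.5) lower, Cd52 10.6-fold (6.23 to 19.04) lower and Cd244, a receptor of natural killer cells, 18.6-fold (8.48 to 48.1) lower. Il2ra, the high-affinity chain of the interleukin 2 receptor, was 8.75-fold (5.004 to 16.2) lower. On the log2(value + 1) scale Cd79b was 16.7-fold lower on A alone and Cd2 12.4-fold lower on B alone. Cd79b, Cd2, Cd52, Cd244 and Il2ra had fewer than 100 reads in the GFP negative library and at most 18 in either GFP positive library. The other listed lymphoid markers lie outside the set. Rag1 had 816 GFP negative reads against 68 in A and 38 in B, or 16.8-fold (13.7 to 20.7) lower. Lck had 234 against 39 and 43, or 6.13-fold (4.75 to 7.99) lower, and Ms4a1 had 23 against 1 and 0. The normalised read count of Rag1 in GFP negative cells, 852, was above those of Ptprc, 281, and Cd79b, 31.3. Which cells carried Rag1 was not tested. The T cell genes Cd3d, Cd3e, Cd3g, Cd4 and Cd8a had no row. Of 8 mast cell markers 1 was listed, Tpsb2, a tryptase, and it was higher, with 41.8 against 168 and 235.

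A further list held 46 signalling, cytoskeletal, membrane and secreted genes of the leukocyte lineages, and its median was close to that of the macrophage markers. Of the 46 genes 20 were listed, 19 lower and 1 higher, or 95% lower against 56.4% of all listed genes. Their median was 18.5% of the GFP negative value, against 18.3% for the macrophage markers and 39.5% for all listed genes. The lower genes ran from 8.39% for Cebpa, a myeloid transcription factor, to 39.8% for Arhgdib. Spi1, the myeloid transcription factor PU.1 (Sfpi1 in the table), stood at 315 against 61.4 and 57.5, which is 5.302-fold (4.29 to 6.59) lower. The haematopoietic actin regulators Coro1a, Rac2 and Nckap1l kept 15.1%, 19.1% and 18.6%, and Ctss, the cathepsin of antigen-presenting cells, kept 19.3%. Cybb, the catalytic subunit of the phagocyte oxidase, was 9.25-fold (6.98 to 12.4) lower. The higher gene was Cyba, the oxidase subunit that other cells share, with 1520.2 against 3609 and 3871, or 2.46-fold (2.33 to 2.604) higher.

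**Figure D2:**
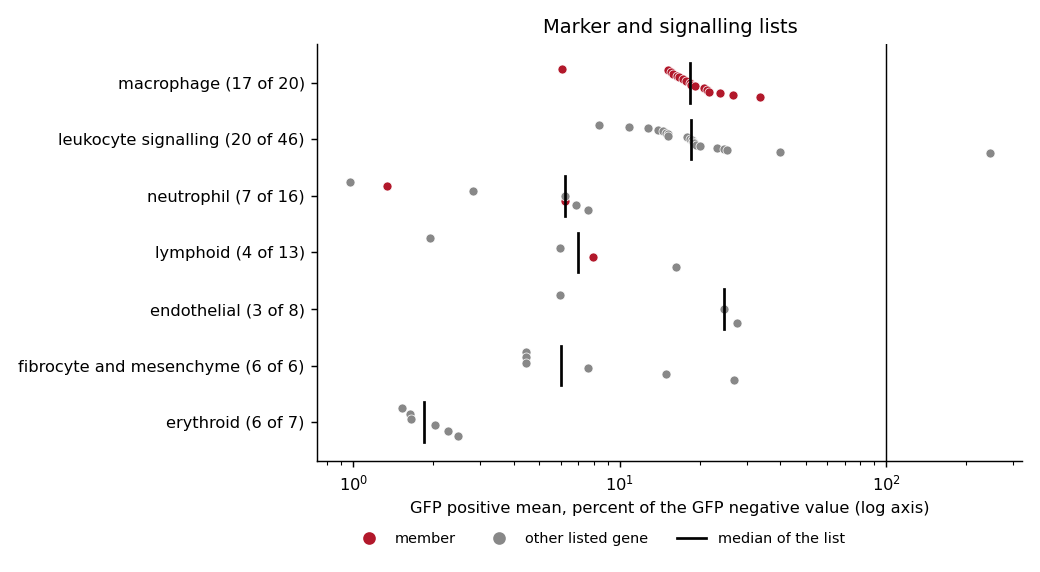
GFP positive mean as a percent of the GFP negative value, on a log axis, for the listed genes of each list, with the number listed and the number of names in brackets. Red points belong to the 95 genes, grey points are other listed genes, black bars are list medians and the vertical line is 100%. Macrophage genes have a median of 18.3%, with Ptprc below the others. Neutrophil and fibrocyte genes have lower medians and erythroid genes the lowest median.

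Genes of other cell types stood at different percents of their GFP negative value. The 6 listed erythroid genes stood at 1.52% to 2.48% of the GFP negative value, with summed levels of 90382 in GFP negative cells, 1698 in A and 1303 in B. The 3 listed endothelial genes of 8 stood at 5.97% to 27.6%, with summed levels of 10078, 1028 and 981. The part of other cells in the levels of the 95 genes was not tested.

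Antigen presentation separated by class for most of its listed genes. All 6 listed genes of the class II pathway were lower, 5 of them past the 4-fold line, against 56.4% and 36.9% of all listed genes. The summed level of the 6 was 1970.2 in GFP negative cells, 238 in A and 239 in B. H2-Aa, the alpha chain of a class II molecule, had 77 reads against 2 and 7, or 18.02-fold (9.01 to 40.9) lower, and 28.4-fold lower on A alone on the log2(value + 1) scale, and its partner H2-Ab1 was 5.66-fold (3.56 to 9.26) lower. Cd74, the invariant chain, stood at 276 against 13.03 and 23.2, which is 15.2-fold (10.8 to 22.1) lower. H2-DMa, H2-DMb1 and H2-DMb2, the subunits of the peptide loader, were 10.5-fold (8.86 to 12.5), 4.02-fold (3.22 to 5.03) and 7.39-fold (6.08 to 9.03) lower. The last pair are close copies, so the split of reads between them is uncertain, and exons of H2-DMa overlap Brd2 on the opposite strand.

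Of the class I genes H2-L, H2-T10 and H2-M5 and the light chain B2m, 4 in all, 3 were higher in GFP positive cells. Of all listed genes 43.6% were higher. On the mean 0 of the 4 were 4-fold or more higher, against 18.1% of all listed genes. H2-M5 was 4-fold or more lower, against 36.9%. H2-L, a classical class I heavy chain (H2-D1 in the reference), stood at 2272 in GFP negative cells against 7609.6 in A and 9315 in B, which is 3.72-fold (3.56 to 3.896) higher. H2-T10, a nonclassical class I gene, stood at 122 against 323 and 308. B2m, the light chain of class I molecules and not among the 95, stood at 7960.4 against 27319.5 and 26222, which is 3.36-fold (3.28 to 3.44) higher, with an interval just below that of H2-L. Cd1d2, a class I-like molecule that presents lipids, was 2.23-fold (1.82 to 2.74) higher. H2-M5, another nonclassical class I gene, was lower, with 714 against 80.04 and 59.5, or 10.2-fold (8.54 to 12.3). The class I genes have many near-identical copies and differ between mouse strains, so the split of reads among them is uncertain. Psmb8, an immunoproteasome subunit that cuts peptides for class I, was 3.87-fold (2.87 to 5.26) lower. Tap1, Tap2, Tapbp, Psmb9 and Nlrc5 had no row.

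**Figure D3:**
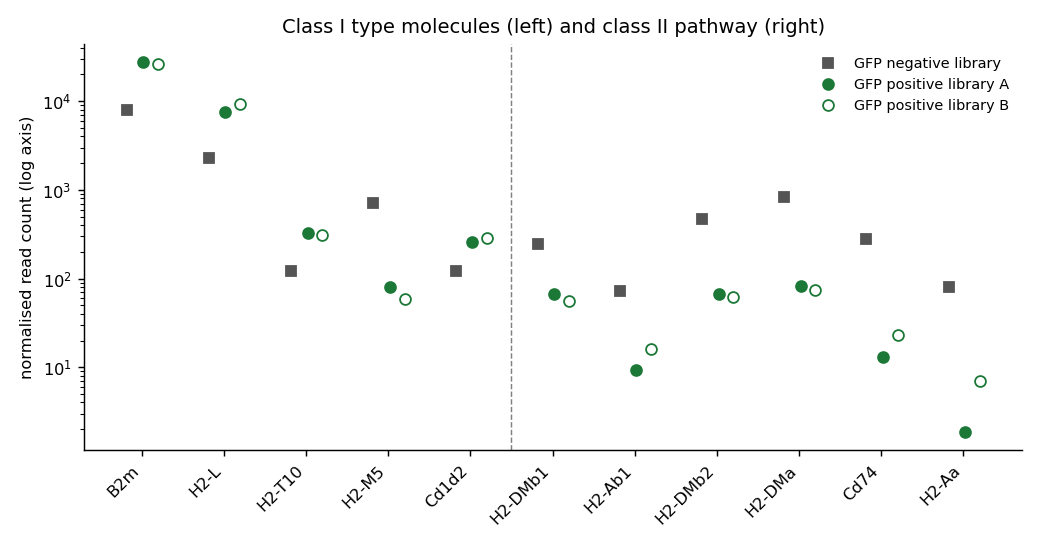
Normalised read counts on a log axis of class I type genes with the light chain B2m, left of the dashed line, and of the class II pathway, right of it. Grey squares are the GFP negative library, filled circles library A and open circles library B. For B2m, H2-L, H2-T10 and Cd1d2 the circles lie above the square, and for H2-M5 and all 6 class II genes they lie below it.

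Because the class II genes were all lower, the letters upstream of their starts were read. RefSeq promoters of the GRCm38.p6 build were at hand for 69 of the 95 genes, and the 250 bases before each gene start were searched on both strands. The letters GATTGG are the core of the Y box that class II promoters are known for. They were found before 16.6% of all 27025 genes. All 4 class II genes with an entry, H2-Aa, H2-DMa, H2-DMb1 and H2-DMb2, held them. So did 6 of 29 restricted genes that were lower, which include these 4, 6 of 23 other lower genes and 3 of 17 higher genes. H2-L was among the higher genes with a match. In H2-DMa the letters lay 199 to 194 bases before the start. The letters GAGGAAG, a core of sites bound by Spi1, were found before 8 of 29 restricted genes that were lower, 4 of 23 other lower genes, 3 of 17 higher genes, 0 of the 4 class II genes and 12.0% of all genes. Among the 95, Cd276 and Il1rapl1 held both motifs. A match is a description of the sequence and not a site shown to be used. The window of H2-Aa is shown with its Y box in capitals, and those of Fcgr1 and Itgam, both macrophage markers, with GAGGAAG or its reverse complement CTTCCTC in capitals, each 5′ to 3′ on the strand of the gene and ending at the base before its start. The windows are chr17:34287824-34288073 on the minus strand, chr3:96293970-96294219 on the minus strand and chr7:128062390-128062639 on the plus strand of GRCm38.p6.
H2-Aa: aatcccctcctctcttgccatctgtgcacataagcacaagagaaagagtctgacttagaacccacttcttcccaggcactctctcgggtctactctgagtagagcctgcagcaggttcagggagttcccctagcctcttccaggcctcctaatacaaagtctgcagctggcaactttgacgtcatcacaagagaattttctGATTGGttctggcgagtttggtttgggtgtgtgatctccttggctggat
Fcgr1: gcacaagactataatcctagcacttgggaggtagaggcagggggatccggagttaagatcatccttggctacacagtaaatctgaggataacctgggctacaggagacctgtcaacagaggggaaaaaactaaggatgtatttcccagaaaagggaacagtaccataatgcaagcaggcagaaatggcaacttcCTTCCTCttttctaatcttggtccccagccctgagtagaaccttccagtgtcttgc
Itgam: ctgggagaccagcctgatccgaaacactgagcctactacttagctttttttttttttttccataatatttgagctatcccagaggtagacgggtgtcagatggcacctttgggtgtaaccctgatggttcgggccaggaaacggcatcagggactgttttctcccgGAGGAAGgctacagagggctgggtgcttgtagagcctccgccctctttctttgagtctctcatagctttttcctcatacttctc
In these windows the Y box of H2-Aa ends 44 bases before the gene start, and the matches of Fcgr1 and Itgam end 50 and 78 bases before it.

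Ligands that draw or feed leukocytes were lower in GFP positive cells. All 7 chemokine ligands were lower, 6 of them 4-fold or more, all 4 interleukins were 4-fold or more lower, and so was Csf1. Of all listed genes 56.4% were lower and 36.9% were 4-fold or more lower. Csf1 and Il34, both ligands of Csf1r, stood at 5232 against 1089 and 1108 and at 617 against 83.8 and 69.6, which is 4.76-fold (4.53 to 5.01) and 8.05-fold (6.74 to 9.65) lower. Cxcl12, a chemokine of mesenchymal cells that guides blood-forming and migrating cells, had the highest level of its family, 10178 against 973 and 888, and was 10.9-fold (10.4 to 11.5) lower. Its scavenger receptor Cxcr7 (Ackr3 in the reference) was lower with it, at 3306 against 385 and 477, or 7.66-fold (7.11 to 8.27). For these genes the GFP negative library lay far above libraries A and B, which differed little.

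Among the interleukins, Il33, a nuclear alarmin of barrier and stromal cells, stood at 1747 against 174 and 269, or 7.88-fold (7.098 to 8.76) lower. Il18, a cytokine of the interleukin 1 family, stood at 930.3 against 121 and 62.6, or 10.1-fold (8.66 to 11.9) lower, and its level in library A was about 1.93 times that in library B. Il17d was 4.91-fold (4.16 to 5.796) lower. Cxcl16, a transmembrane chemokine, was 9.91-fold (8.103 to 12.2) lower, and its exons overlap Zmynd15 on the opposite strand. Ccl3, Ccl6, Ccl9 and Ccl12, chemokines that attract monocytes and other leukocytes, kept 18.5%, 6.06%, 8.34% and 17.2% of the GFP negative value, on 46 to 123 reads in that library. Ccl27a had the smallest difference, 2.17-fold (1.93 to 2.44) lower, and its log2 ratio turned to 0.22 after centring on the median listed gene.

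Chemokine receptors held the largest difference in favour of GFP positive cells. Cxcr3, the receptor of activated T cells for the interferon-induced chemokines, had 10 reads in GFP negative cells, 390 in A and 414 in B. Its normalised read counts were 10.4, 363 and 418, which is 37.4-fold (20.2 to 78.3) higher, and the width of the interval comes from the few GFP negative reads. Ccr1, a receptor of monocytes and neutrophils, was lower, with 175 against 40.95 and 43.4, or 4.16-fold (3.19 to 5.45).

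Regulators of complement were higher in GFP positive cells, in contrast to C1q. Cd55, the decay-accelerating factor that dismantles complement convertases, stood at 179.6 in GFP negative cells, 3714 in A and 3559.5 in B, which is 20.2-fold (17.4 to 23.7) higher. Cd59a, which blocks the membrane attack complex, stood at 482 against 3946 and 4174, which is 8.42-fold (7.66 to 9.26) higher. Cd97, an adhesion G protein-coupled receptor (Adgre5 in the reference) that binds Cd55, reached 2184 against 24071 and 25808, the highest GFP positive level of the 95 genes, and was 11.4-fold (10.9 to 11.9) higher. Libraries A and B lay close together for each of them. Exons of Cd97 overlap Ddx39 on the opposite strand, and those of Cd55 an antisense transcript, so their counts may hold reads of those genes too.

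Cd200 and Cd274, ligands of receptors that restrain leukocytes, were also higher. Cd200, the ligand of an inhibitory receptor of myeloid cells, stood at 1632 against 6857 and 8269, or 4.63-fold (4.399 to 4.88) higher. Cd274, the checkpoint ligand PD-L1, was less abundant, at 44.9 against 251 and 221, or 5.26-fold (3.85 to 7.36) higher. Cd276, another protein of the B7 family, was lower, with 5987 against 2173 and 2328, or 2.66-fold (2.56 to 2.77). Cd40 and Cd83, both of activated antigen-presenting cells and also found on other cells, were 10.1-fold (7.63 to 13.4) and 20.3-fold (15.1 to 27.8) lower.

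Tetraspanins, which organise other proteins in the membrane, divided by their cells of use. Cd81, Cd82 and Cd151, which most cells carry, were 2.07-fold (2.02 to 2.12), 2.46-fold (2.27 to 2.66) and 4.28-fold (4.08 to 4.48) higher, and Cd53 and Cd37, which leukocytes carry, were 5.22-fold (3.96 to 6.96) and 2.103-fold (1.72 to 2.57) lower. Cd81 stood at 10018 against 20189 and 21283. Per kilobase of merged exons in the GRCm38 annotation, it had the highest GFP positive level of the set, 7202, followed by Cd97 with 6638, H2-L with 3281 and Cd151 with 3222. On that scale the GFP negative library was led by Cd24a, a glycoprotein of immature cells, with 3989.5, then Cd81 with 3479.8 and Fcgrt with 2601, whereas Ptprc reached 15.3 and Csf1r 365. Cd37 turned to a log2 ratio of 0.27 after centring on the median listed gene.

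**Figure D4:**
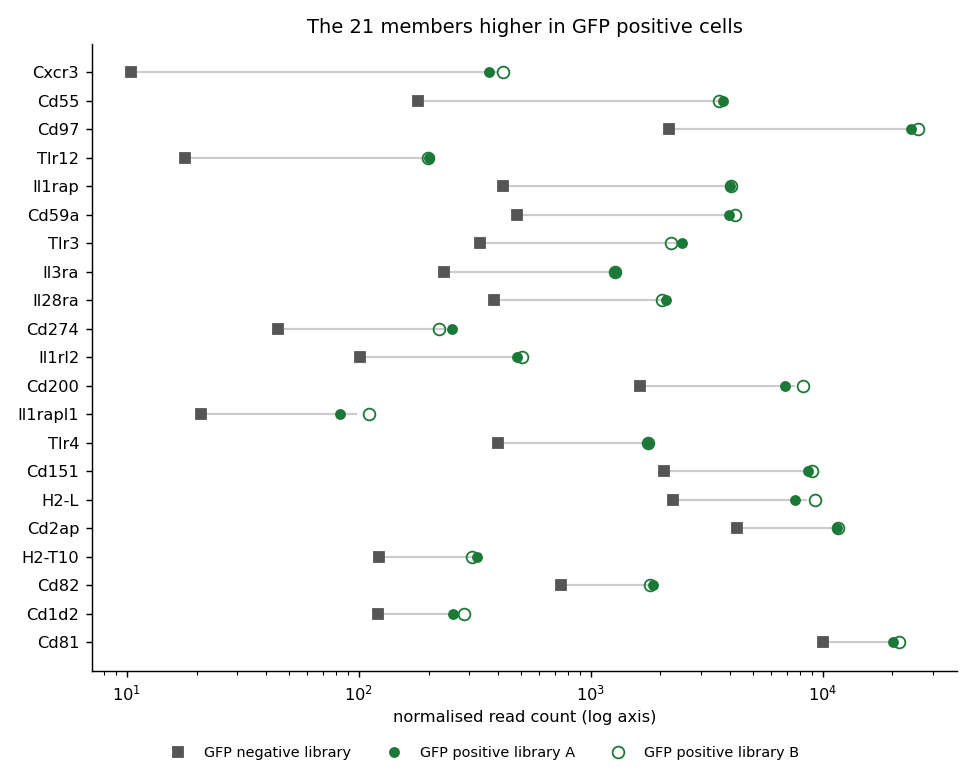
Normalised read counts on a log axis for the 21 genes that were higher in GFP positive cells, sorted by log2 ratio. Grey squares are the GFP negative library, filled circles library A, open circles library B, and the line runs from the GFP negative value to the authors' mean. Cxcr3, Tlr12, Il1rapl1 and Cd274 start from GFP negative values under 100, and circles of a gene lie within 1.34-fold of each other.

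Toll-like receptors sense molecules of microbes. Of the 4 listed, 3 were 4-fold or more higher in GFP positive cells, against 18.1% of all listed genes. Tlr3, which senses double-stranded RNA in endosomes, stood at 332 against 2481 and 2209.6, or 7.06-fold (6.31 to 7.94) higher. Tlr4, the receptor of bacterial lipopolysaccharide, stood at 398 against 1765 and 1772, or 4.44-fold (3.999 to 4.95) higher. Tlr12 had 17 reads in the GFP negative library against 216 and 198, or 11.3-fold (6.97 to 19.6) higher. Tlr5, the receptor of flagellin, was lower, with 637 against 98.7 and 82.7, or 7.02-fold (5.95 to 8.31). For each receptor A and B were both above or both below the GFP negative value.

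Of 14 interleukin receptors 5 were higher and 9 lower, or 35.7% and 64.3%, near the 43.6% and 56.4% of all listed genes. Past the 4-fold line 5 were higher, or 35.7%, against 18.1% of all listed genes. On the lower side 6 were past it, or 42.9%, against 36.9%. Il1rap, the shared coreceptor of the interleukin 1, 33 and 36 receptors, stood at 418 against 3971 and 4009.5, or 9.55-fold (8.64 to 10.6) higher. Il1rl2, the interleukin 36 receptor, was 4.86-fold (3.94 to 6.05) higher, while Il1r1, the interleukin 1 receptor, was 2.81-fold (2.16 to 3.67) lower on 136 GFP negative reads. Il1rapl1, a relative that acts at synapses, was 4.64-fold (2.93 to 7.76) higher on 20 GFP negative reads. Il28ra, the receptor chain for type III interferons (Ifnlr1 in the reference), stood at 383 against 2111 and 2021, or 5.39-fold (4.84 to 6.01) higher. Il3ra, the specific chain of the interleukin 3 receptor, stood at 233 against 1269 and 1268, or 5.45-fold (4.75 to 6.27) higher, though it belongs to the genes listed here as restricted to leukocytes.

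The lower receptors included Il17rd, an inhibitor of FGF signalling in spite of its name, which had the highest level of them, 6038 against 1074 and 1079, and was 5.61-fold (5.34 to 5.89) lower. Il13ra1, a chain of the interleukin 4 and 13 receptors, was 5.43-fold (4.898 to 6.02) lower, and Il15ra, which presents interleukin 15, 8.84-fold (7.32 to 10.7) lower. Il10ra, the ligand-binding chain of the interleukin 10 receptor, was 8.604-fold (5.84 to 13.01) lower and Il27ra 7.82-fold (4.65 to 13.8) lower, on 133 and 68 GFP negative reads. Il17rb was 3.65-fold (2.87 to 4.66) lower with 72.6 in library A and 33.3 in library B, and 5.66-fold lower on B alone on the log2(value + 1) scale. Il11ra2 has near-identical copies, and its 3.32-fold (2.46 to 4.51) lower value is uncertain.

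Of a list of 41 genes of cytokine signalling and antigen presentation 15 were listed. Of these 6 were higher and 9 lower, or 40% and 60%, near the shares of all listed genes, with a median log2 ratio of -1.91 against -1.34 for all listed genes. Stat6 and Stat5a, transcription factors that cytokine receptors activate, and B2m were 3.91-fold, 3.36-fold and 3.36-fold higher. The feedback inhibitors Socs1 and Socs3 were 5.21-fold (4.22 to 6.46) and 3.76-fold (3.61 to 3.92) lower. Osmr and Lifr, receptors of the interleukin 6 family, were 11.5-fold (8.96 to 14.8) and 3.27-fold (2.998 to 3.57) lower.

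The remaining antigens and lectins were lower. Cd24a stood at 10293 against 1664 and 1025, or 7.65-fold (7.34 to 7.99) lower. Cd36, a scavenger receptor for lipids, and Cd109, a membrane protein that binds TGF-beta, were 4.02-fold (3.24 to 4.99) and 3.26-fold (2.77 to 3.83) lower. All 6 C-type lectins were 4-fold or more lower on the mean, against 36.9% of all listed genes. Clec7a, the fungal glucan receptor dectin-1 of myeloid cells, and Clec12a, an inhibitory receptor of myeloid cells, were 9.05-fold (4.301 to 21.3) and 14.4-fold (7.11 to 33.1) lower on 38 and 59 GFP negative reads. Clec12a had 7 reads in A and 2 in B and was 20.7-fold lower on B alone, on the log2(value + 1) scale. Clec11a, a secreted growth factor of bone and not a leukocyte antigen, was 4.76-fold (4.12 to 5.52) lower, and Clec18a 13.6-fold (10.3 to 18.2). On the log2(value + 1) scale Clec11a was 7.19-fold lower on A alone. The Ly antigens were lower in the same range, from Ly6e, 4.18-fold (3.86 to 4.51), to Ly86, the partner of a Toll-like receptor relative in B cells and macrophages, 8.11-fold (5.88 to 11.4). Clec1a, Clec2l, Ly6h and Ly75 lay between 5.67-fold and 7.25-fold lower. Nearest to the 4-fold line on the lower side were Ccr1 and Fcgr3, just past it, and H2-DMb1 and Cd36, just short of it through the pseudocount. On the higher side Cd151 and Tlr4 were the last past it and H2-L and then the adaptor Cd2ap, at 2.72-fold (2.63 to 2.81) higher, the first short of it. On 1 GFP positive library alone the 4-fold call of 5 genes ended: Il1rapl1, Ly6e and Fcgr3 on A, at 3.83-fold, 3.92-fold and 3.66-fold on the log2(value + 1) scale, and Ccr1 and Clec11a on B, at 3.97-fold and 3.53-fold.

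For all 95 genes A and B were both above or both below the GFP negative value. The pair was within 1.5-fold of each other on the log2(value + 1) scale for 79 of the 95, or 83.2%, against 90.9% of all listed genes. Of the 16 genes farther apart, all were lower in GFP positive cells and 13 had a GFP positive mean under 100. The other 3 were Clec11a, Il33 and Cd24a. Cd24a had 1788 reads in library A and 1016 in library B, and Clec11a had 93 and 176. H2-Aa and Cd79b were farthest apart, on 2 against 7 and 1 against 4 reads. In all, 12 genes had fewer than 20 reads over both GFP positive libraries. Exons of 23 of the 95 overlap another annotated gene, mostly an antisense or opposite-strand gene, among them the higher genes Cd97, Cd55, Cd274, Il1rap, Tlr3, Il3ra, Cd151, Cd81 and H2-T10, and the part of those genes in the counts was not tested.

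**Figure D5:**
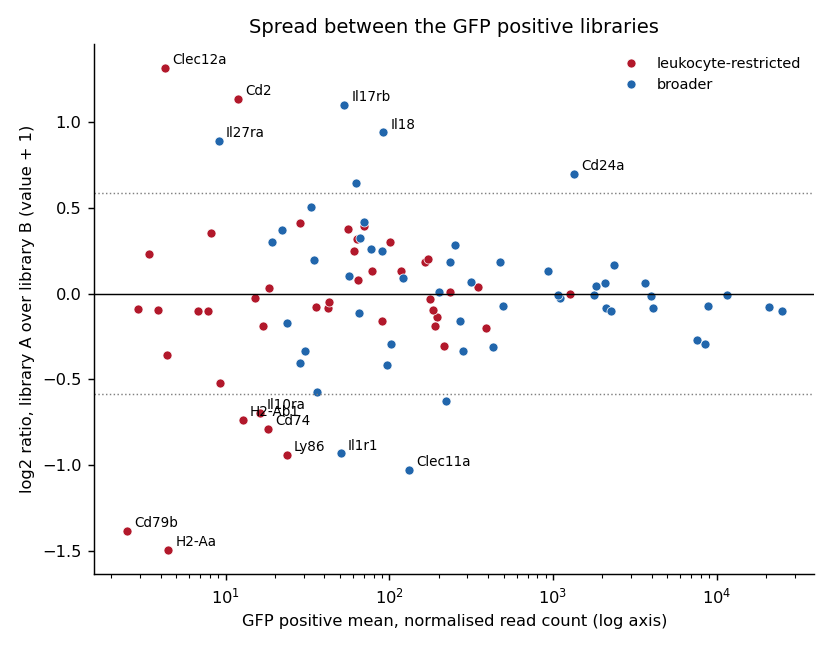
Log2 ratio of library A over library B on the log2(value + 1) scale against the GFP positive mean on a log axis, for the 95 genes. Red points are genes restricted to leukocytes, blue points genes of wider use, and the dotted lines mark 1.5-fold. The spread is widest at low means, and Cd24a, Il33 and Clec11a lie outside the lines at means above 100.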

How the data were processed

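The data are 1 deposited table of 4197 genes. STAR and mm9 are named in the submitters' processing notes. Not given in the sources used here are what counted the reads, whether by strand, and which test was used. The deposited columns hold, per the file headers, a signal (normalised read count) of GFP negative cells, an average of GFP positive cells, the fold (ratio) between them, the log2 of that fold, and p-values with their adjusted form. The deposited signal values are read counts divided by size factors: 100% of GFP negative values were whole reads times 1 step (size factor 0.958; tolerance 1e-06 reads), and 100% of the averages fitted exactly 1 pair of whole numbers (size factors 1.07 and 0.991; relative tolerance 1e-13), against 0.0238% of slightly altered averages.

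Members, gene lists and the division by cells of use were chosen with earlier results of these data known. Ratios use a pseudocount of 1, and the 4-fold line asks that the larger value reach 5. Exact intervals came from scipy 1.17.1. The reference GRCm38 (GENCODE M21) gave names for all 95 members, of which 7 have another symbol there, exon lengths and exon overlaps; 23 members overlap another gene. The text names 66 members by a rule: the extremes of the set and of each family, the largest values of each family, marker genes and genes next to the 4-fold line. The others were named to complete their families after their values were seen. A gene of the signalling lists is not reported here.

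As an alternative, edgeR 4.0.16 (quasi-likelihood, TMM) was run on the recovered reads of all listed genes. At an adjusted p of 0.05 it called 2366 of 4197 genes lower (56.4%) and 1831 higher (43.6%), including 74 and 21 members. The authors chose the listed genes on these libraries and GFP negative cells have 1, so the test adds no support and compares libraries, not conditions.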

Additional observations from a re-analysis of the deposited data

How the results depend on the processing

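The direction of a member was recomputed under 6 settings: pseudocounts of 0.5 and 5, scaling to the listed total, centring on the median listed gene, and library A or B alone. Of 570 values 568 kept their sign, and centring reversed Ccl27a (0.22) and Cd37 (0.27). Centring moved the count of members 4-fold or more lower from 62 to 14 and the median log2 ratio from -2.44 to -1.10, and the listed-total scaling gave a median of -2.80. Centring shifts every log2 ratio by 1.34 and scaling by -0.37, so these moves follow from their construction. An 8-fold line left 22 members lower and 6 higher. Without the members whose exons overlap another gene, 8 of the 15 higher ones and 52 of the 62 lower ones remained. Exon overlap thus falls more on the higher members. Other settings kept these counts within 1.5 times (library A alone: 63 lower and 14 higher; library B alone: 62 and 16). Settings on exon overlap, on the spread between A and B and with edgeR on the size factors of the deposited values were chosen after seeing the data. DESeq2 1.42.0 on the recovered reads called 70 members lower and 21 higher. No paired analysis was possible because each fraction has 1 labelled sample. Depth limits the 12 members with fewer than 20 GFP positive reads, such as S100a9 and Cd79b.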

Other observations

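Genes of similar level and ratio had very different p-values in the authors' deposited table. Cd151, with a mean of 8832 against 2065, has a p of 4.43e-84 there. H2-L, with 8462 against 2272, has 3.09e-07, and Cd200, with 7563 against 1632, has 6.32e-10. Library B over library A was 1.05, 1.22 and 1.21 for these genes.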
